A study of Rattus norvegicus with 12 samples.

Results

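The genes described here are the 3 subunits proposed to form the humanin receptor, Il6st, Cntfr and Il27ra, and 7 genes of the cytokine pathway that they share, namely the receptor subunits Lifr and Osmr, the ligands Il6, Lif and Il11, the transcription factor Stat3 and its inhibitor Socs3. They were selected by gene symbol, and all 10 were found among the 22850 features of the expression tables. Primary rat atrial fibroblasts, isolated by differential adhesion from Sprague-Dawley pups 1 to 3 days old, were treated for 48 h in 3 groups of 4 libraries. The AngII group received angiotensin II at 1 μmol/L, the AngII+HNG group received HNG at 10 μmol/L and the AngII+MOTS-c group MOTS-c at 5 μmol/L, each peptide 1 h before the same dose of AngII, in medium with 2% FBS. Every library therefore came from cells exposed to AngII, and cells without AngII were not analysed here. HNG is an analogue of the mitochondrial-derived peptide humanin in which one serine is replaced by glycine, and MOTS-c is another peptide encoded in mitochondrial DNA.

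Cytokines of the interleukin-6 family signal through the shared subunit gp130, encoded by Il6st, which pairs with partner chains such as LIFR or OSMR. Humanin has been proposed to act through gp130 together with CNTFR, which has no cytoplasmic tail, and WSX-1, the product of Il27ra. Ligand binding activates JAK kinases and STAT3, and STAT3 induces SOCS3, which in turn inhibits signalling at gp130. In the heart this pathway is known for its part in myocyte survival and in the response of fibroblasts to injury.

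The promoter sequences of the ligands Il6 and Il11 are shown because, of the windows found, they were the ones that held a motif searched, in the 300 bases around the gene start that RefSeq gives for the rat build GRCr8. Windows were found for 8 of the 10 genes, and the table used held none for Cntfr and Lif. Both stretches lie upstream of the gene start. The capitals in Il6 mark the cAMP response element TGACGTCA, which starts 162 bases before the gene (chr4:5894690-5894777, minus strand), and the capitals in Il11 mark the AP-1 motif TGAGTCA, which starts 142 bases before it (chr1:78098440-78098526, plus strand).
Il6: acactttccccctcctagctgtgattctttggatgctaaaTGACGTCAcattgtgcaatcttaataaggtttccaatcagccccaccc
Il11: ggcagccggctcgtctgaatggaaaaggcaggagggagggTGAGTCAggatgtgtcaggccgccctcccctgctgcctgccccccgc
Both strands were searched. The cAMP response element was present in 1.83% of the 33469 windows of the table and the AP-1 motif in 4.63%. The STAT motif TTCNNNGAA was in 0 of the 8 windows, Socs3 included, against 8.87% of all windows. A match or its absence describes these letters only, since no binding was measured.

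The 12 libraries held 27960586 to 38322354 counts each, so that 3 counts corresponded to 0.0783 to 0.107 CPM, the normalised read count, a floor that covers counting error only. Libraries of a group differed by 4.30 to 18.5 times sampling noise (chi-square per degree of freedom), and the 3 highest values were those of AngII+HNG replicate 3. The study calls the 4 libraries of a group biological replicates. Whether each came from its own cell preparation is not stated, so p-values measure the spread between these samples. Fibroblast markers summed to 58958 to 66346 CPM per library, and 1 of 7, Tcf21, was called, higher with HNG than with AngII by 0.28 (edgeR adjusted p = 0.00746) and than with MOTS-c by 0.35 on the log2 scale (edgeR adjusted p = 0.00597). Col1a1, a collagen gene, stood at 4248 ± 114 FPKM with AngII (SD, n = 4). Cardiomyocyte markers were also high, for example Tnnt2, a sarcomere gene, at 745 ± 35.9 FPKM and Nppa, the atrial natriuretic peptide gene, at 2416 ± 67.6 FPKM with AngII, and 0 of 7 such markers were called in each comparison. With HNG 3 of 9 macrophage markers rose, namely Lyz2, Cd68 and Ptprc. Their list summed to 302 to 395 CPM against 222 to 270 CPM with AngII, mostly through Lyz2 (172 against 102 CPM), while Adgre1, C1qb and C1qc had log2 fold changes of -0.36, -0.046 and -0.43 and were not called. With HNG 2 of 6 endothelial markers, Tek and Kdr, rose (list sum 74.7 to 82.4 against 58.5 to 66.3 CPM), while Emcn had a log2 fold change of -0.19 and was not called. Of 5 smooth muscle and pericyte markers 2, Notch3 and Myh11, fell (list sum 790.5 to 915 against 940.3 to 1032 CPM). The mean of Notch3 was 346 against 452 CPM, while Cspg4, Rgs5 and Des had log2 fold changes of -0.0036, -0.050 and 0.023 and were not called. Of all genes tested, 5.98% were called with HNG against AngII. No listed marker was at 0 in all libraries, and with MOTS-c against AngII none of these markers was called. Between HNG and MOTS-c, besides Tcf21, Lyz2, Cd68 and Tek were called higher with HNG (log2 fold changes 0.70, 0.52 and 0.35) and Notch3 lower (-0.37), beside 4.41% of all genes tested. The macrophage list summed to 302 to 395 against 219 to 267 CPM there, while Adgre1, C1qb and C1qc were at -0.26, -0.19 and -0.67 and were not called. In bulk RNA, fewer cells of a type and less RNA per cell cannot be told apart.

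Levels of different genes were compared in FPKM, the deposited unit in which read counts are divided by gene length and library size. The gp130 gene Il6st was the most abundant of the 10, with a mean of 81.7 FPKM over the 12 libraries (range 76.3 to 87.1), above 95.8% of the 18385 features with a count. Stat3 followed at 50.6 FPKM (48.3 to 52.8) and Osmr, the signalling subunit for oncostatin M, at 30.0 FPKM (26.8 to 32.7). The feedback inhibitor Socs3 stood at 6.57 FPKM (5.29 to 7.81) and the leukaemia inhibitory factor receptor Lifr at 3.75 FPKM (3.24 to 4.74). The order of these 5 genes was the same in 12 of 12 libraries, and their ranges did not overlap.

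The other members were lower. Lif averaged 2.99 FPKM (1.85 to 4.68), Il27ra 0.812 FPKM (0.613 to 1.08), Il11 0.511 FPKM (0.341 to 0.655), Il6 0.381 FPKM (0.217 to 0.576) and Cntfr 0.299 FPKM (0.115 to 0.523). Lif lay clear of Il27ra, but the ranges of Lifr and Lif overlapped and their order held in 10 of 12 libraries. The 2 exceptions were AngII replicate 3 (Lif at 4.68 and Lifr at 3.50 FPKM) and AngII+MOTS-c replicate 1 (4.12 and 3.96 FPKM), where the gene length implied by counts and FPKM was 2583 and 3225 bases for Lif. That length ran up to 4780 bases in other libraries, a ratio of 1.85, so FPKM values of Lif did not stand on 1 scale across libraries. Il27ra was above Il11 in 12 of 12 libraries with overlapping ranges, whereas Il11 above Il6 and Il6 above Cntfr each held in 9 of 12, so these neighbours were not separated beyond their spread.

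**Figure D1:**
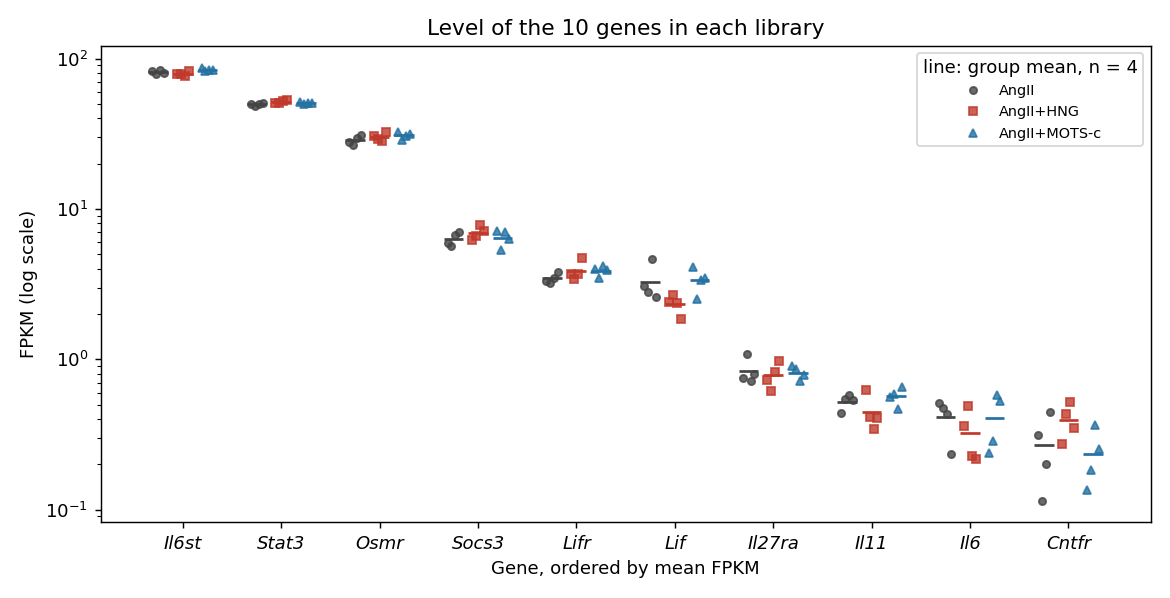
Level of the 10 genes in each library on a logarithmic FPKM axis, with 1 point per library, 3 treatments and a line at each group mean (n = 4). Il6st, Stat3 and Osmr sit between 26.8 and 87.1 FPKM with little spread, while Il27ra, Il11, Il6 and Cntfr lie at or below 1.08 FPKM, and the treatments overlap in FPKM except for Il6st between HNG (76.3 to 82.19) and MOTS-c (82.24 to 87.1).

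The 3 proposed receptor subunits were thus present at very unequal mRNA levels. The ratio of Il6st to Cntfr ranged from 146 to 687 over the libraries with a median of 277 (FPKM ratio, n = 12), and that of Il6st to Il27ra from 72.8 to 128 with a median of 104. The first range rests on 9 to 37 counts of Cntfr per library. Its ends were AngII+HNG replicate 3 (29 counts) and AngII replicate 2 (9 counts), and the implied length of Cntfr varied by a ratio of 1.34 between libraries. Against the other partner chains the ratio was smaller. Il6st exceeded Osmr by a median ratio of 2.70 (2.52 to 2.98) and Lifr by 21.8 (17.4 to 25.1), and Osmr exceeded Lifr by 8.24 (6.90 to 8.51). Among the ligands Lif exceeded Il6 by a median ratio of 7.55 (5.54 to 17.2) and Il11 by 5.92 (3.82 to 8.14), ratios that carry the same 1.85-fold shift in the FPKM scale of Lif. The ratio of Stat3 to Socs3 had a median of 7.60 (6.64 to 9.40).

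To ask whether either peptide altered the expression of the pathway under AngII, counts were compared with edgeR's quasi-likelihood test, with adjustment over all genes and a threshold of 0.05. All 10 genes passed the filter on low counts in each comparison. Of AngII+HNG against AngII, 0 of 10 members were called, with adjusted p-values in edgeR of 0.331 to 0.831, whereas 5.98% of the 14524 genes tested were called. Of AngII+MOTS-c against AngII, 0 of 10 were called (edgeR, adjusted p from 0.924 to 0.999), where 0.0069% of 14488 genes were called, which is 1 gene. Of AngII+HNG against AngII+MOTS-c, 0 of 10 were called (edgeR, adjusted p from 0.267 to 0.979), against 4.41% of 14448 genes. These comparisons share libraries and are not independent of each other.

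At an unadjusted p below 0.05 edgeR gave 1 of the 30 member tests, that of Lifr with MOTS-c, while 20.3%, 5.05% and 19.3% of all genes tested passed it with HNG, with MOTS-c and between the peptides. DESeq2 called 0 members in each comparison and gave 1 in each at the unadjusted threshold, but it set no adjusted p for Il6 with HNG or for Cntfr and Il6 between the peptides. limma on log2(FPKM + 1) likewise called 0, with 1, 0 and 3 at the unadjusted threshold in the order above. In CPM the groups overlapped in all 30 member comparisons, while they did not overlap for 13.6%, 3.5% and 12.7% of all genes tested. The median log2 fold change of the 10 members was -0.023 with HNG, 0.015 with MOTS-c and -0.072 between the peptides, beside 0.0043, -0.00076 and 0.0023 over all genes. With HNG 5 members were nominally higher and 5 lower than with AngII alone, with MOTS-c 7 and 3.

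**Figure D2:**
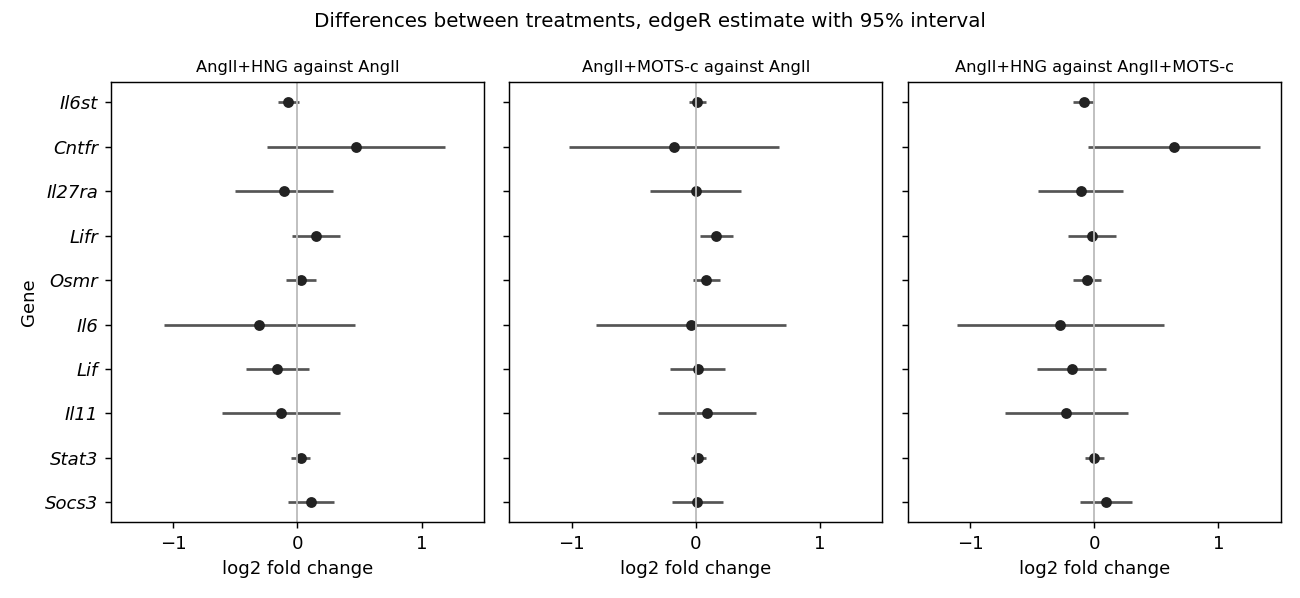
Log2 fold change of each of the 10 genes in the 3 comparisons, as edgeR estimates (points) with 95% intervals (lines), 4 libraries per group. All intervals include 0 except that of Lifr with MOTS-c, whose lower end is 0.034, and the widest intervals are those of Cntfr and Il6.

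Among the receptor subunits, the level of Il6st was the most precisely measured. It stood at 686, 651, 695 and 666 CPM in AngII replicates 1 to 4, at 645, 640.2, 609 and 668 CPM with HNG, and at 700.3, 661, 673 and 683 CPM with MOTS-c. The means were 674 ± 20.05, 641 ± 24.6 and 679 ± 16.8 CPM (SD, n = 4 each). All 4 HNG libraries lay below the AngII mean, but the groups overlapped, since HNG replicate 4 was above 2 AngII libraries. With HNG the log2 fold change was -0.072 (SE 0.039, 95% interval -0.16 to 0.012, edgeR adjusted p = 0.331), an interval from 10.3% lower to 0.845% higher. Without AngII+HNG replicate 3, the lowest library, it was -0.050 (edgeR adjusted p = 0.474). With MOTS-c it was 0.011 (SE 0.032, edgeR adjusted p = 0.978), and between HNG and MOTS-c -0.086 (SE 0.040, edgeR adjusted p = 0.267). In FPKM the HNG libraries at 76.3 to 82.19 lay just below the MOTS-c libraries at 82.24 to 87.1, a difference of -0.092 on the log2(FPKM + 1) scale (limma adjusted p = 0.213). In CPM these groups overlapped, and the gene length implied by counts and FPKM was shorter in all 4 MOTS-c libraries (8024 to 8062 bases) than in the HNG libraries (8074 to 8211 bases). The gp130 subunit that Il6st encodes is shared by the receptors for interleukin-6, interleukin-11 and LIF.

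Cntfr, the ciliary neurotrophic factor receptor, rested on very few reads. Its counts were 26, 9, 15 and 32 in AngII replicates 1 to 4, 17, 37, 29 and 24 with HNG, and 10, 15, 23 and 18 with MOTS-c. Scaled to library size the means were 0.562 ± 0.261, 0.782 ± 0.171 and 0.512 ± 0.224 CPM (SD, n = 4 each). All 4 HNG libraries were above both the AngII and the MOTS-c mean. Yet AngII replicates 1 and 4 at 0.683 and 0.853 CPM and MOTS-c replicate 3 at 0.806 CPM lay inside the HNG range of 0.605 to 0.970 CPM. Its log2 fold change was 0.47 with HNG against AngII (SE 0.33, 95% interval -0.24 to 1.19, edgeR adjusted p = 0.477) and 0.64 between HNG and MOTS-c (SE 0.32, 95% interval -0.050 to 1.34, edgeR adjusted p = 0.295). With MOTS-c against AngII it was -0.17 (SE 0.39, edgeR adjusted p = 0.976). The spread between libraries was 46.4% of the mean with AngII, 21.8% with HNG and 43.7% with MOTS-c (SD), beside a counting error of 19.3% to 24.6% per library. The interval with HNG includes both 0 and a doubling.

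Il27ra, which encodes the WSX-1 chain shared with interleukin-27, was intermediate, with 60 to 115 counts. Its level was 2.08, 3.28, 2.13 and 2.45 CPM with AngII, 2.13, 1.86, 2.45 and 2.76 CPM with HNG, and 2.75, 2.59, 2.17 and 2.39 CPM with MOTS-c. The highest and the lowest library thus belonged to AngII and HNG, and the groups overlapped widely. On the log2 scale it differed by -0.11 with HNG (SE 0.18, 95% interval -0.50 to 0.29, edgeR adjusted p = 0.808) and -0.0016 with MOTS-c (SE 0.17, edgeR adjusted p = 0.999). Without AngII replicate 2, the highest library, the first value was 0.050.

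Lifr, the chain through which LIF and cardiotrophin-1 reach gp130, gave the lowest unadjusted p of the 30 tests. It stood at 34.6, 33.8, 36.5 and 39.9 CPM with AngII, at 41.0, 37.0, 43.6 and 40.8 CPM with MOTS-c, and at 38.3, 35.3, 37.9 and 48.7 CPM with HNG. All 4 MOTS-c libraries were above the AngII mean, but MOTS-c replicate 2 lay below AngII replicate 4. The log2 fold change with MOTS-c was 0.17 (SE 0.061, 95% interval 0.034 to 0.30, edgeR adjusted p = 0.924 and 0.0176 before adjustment), and 5.05% of all genes tested reached an unadjusted p below 0.05 in that comparison. With HNG it was 0.15 (SE 0.090, edgeR adjusted p = 0.393), and between the peptides -0.019 (SE 0.089, edgeR adjusted p = 0.933). HNG replicate 4 was the highest of all libraries for Lifr, and over the 19 alternatives the value with HNG ran from 0.041 to 0.21. Osmr ranged from 138 to 164 CPM over all libraries, and its means were 147 ± 10.8, 150.3 ± 8.28 and 156 ± 8.18 CPM with AngII, HNG and MOTS-c (SD, n = 4 each). The corresponding log2 fold changes were 0.030 with HNG (SE 0.055, edgeR adjusted p = 0.831) and 0.086 with MOTS-c (SE 0.051, edgeR adjusted p = 0.924).

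Of the ligands, Il6 had the fewest counts. Its counts were 22, 19, 16 and 10 with AngII, 12, 21, 9 and 9 with HNG, and 10, 12, 18 and 20 with MOTS-c. The interval of the log2 fold change with HNG ran from -1.08 to 0.47 around -0.31 (SE 0.36, edgeR adjusted p = 0.702), and that with MOTS-c from -0.80 to 0.73 around -0.036 (SE 0.35, edgeR adjusted p = 0.997). A difference of Il6 mRNA inside these intervals was not detectable at this depth. Il11, a cytokine made by activated fibroblasts, had 26 to 48 counts per library. Its means were 1.14 ± 0.111 CPM with AngII, 1.05 ± 0.306 CPM with HNG and 1.22 ± 0.144 CPM with MOTS-c (SD, n = 4 each). HNG replicate 1 was the highest of all libraries for Il11 at 1.49 CPM and the other 3 HNG libraries were the lowest, at 0.786 to 0.970 CPM. The log2 fold change was -0.13 with HNG (SE 0.22, edgeR adjusted p = 0.808) and 0.091 with MOTS-c (SE 0.18, edgeR adjusted p = 0.972). Over the 19 alternatives these ran from -0.33 to -0.019 and from 0.0030 to 0.15.

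Lif, the most abundant of the 3 ligands, was the member for which counts and FPKM differed most. By counts it stood at 12.8, 11.9, 12.1 and 10.1 CPM with AngII, at 10.9, 11.8, 11.2 and 8.04 CPM with HNG, and at 13.3, 11.2, 13.1 and 9.86 CPM with MOTS-c. In each treatment replicate 4 was the lowest. In FPKM the AngII values were 3.05, 2.78, 4.68 and 2.61, the HNG values 2.39, 2.69, 2.37 and 1.85, and the MOTS-c values 4.12, 2.51, 3.38 and 3.49. AngII replicate 3 was thus the highest library in FPKM while it was in the middle of its group in CPM.

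The gene length implied by count, library total and FPKM should be the same in every library if FPKM is the count divided by a fixed length. For Lif it ranged from 2583 bases in AngII replicate 3 to 4780 bases in AngII+HNG replicate 3, a ratio of 1.85, larger than in 99.5% of the 11263 genes with at least 100 counts in every library, whose median ratio was 1.01. The 4 HNG libraries gave 4387 to 4780 bases, above the 4 AngII libraries at 2583 to 4262 bases, and the MOTS-c libraries gave 2807 to 4470 bases. For Il6st, Stat3, Osmr, Lifr and Socs3 the ratio was at most 1.05, although for Il6st the MOTS-c libraries (8024 to 8062 bases) lay below the AngII libraries (8186 to 8211 bases) and the HNG libraries (8074 to 8211 bases), and for Cntfr and Il11, which have fewer than 100 counts, 1.34 and 1.33.

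The size of the Lif difference followed the unit. In counts the log2 fold change with HNG was -0.16 (SE 0.12, 95% interval -0.42 to 0.093, edgeR adjusted p = 0.495) and between HNG and MOTS-c -0.18 (SE 0.13, edgeR adjusted p = 0.470). Over the 19 alternatives, FPKM scales included, the first ran from -0.46 to -0.052 and the other from -0.51 to -0.069. On the log2(FPKM + 1) scale the same differences were -0.35 (limma adjusted p = 0.202) and -0.39 (limma adjusted p = 0.108), with unadjusted p-values from limma of 0.0292 and 0.00697. Neither unit passed the threshold, and with MOTS-c against AngII both were close to 0, at 0.016 in counts and 0.042 on the log2(FPKM + 1) scale.

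**Figure D3:**
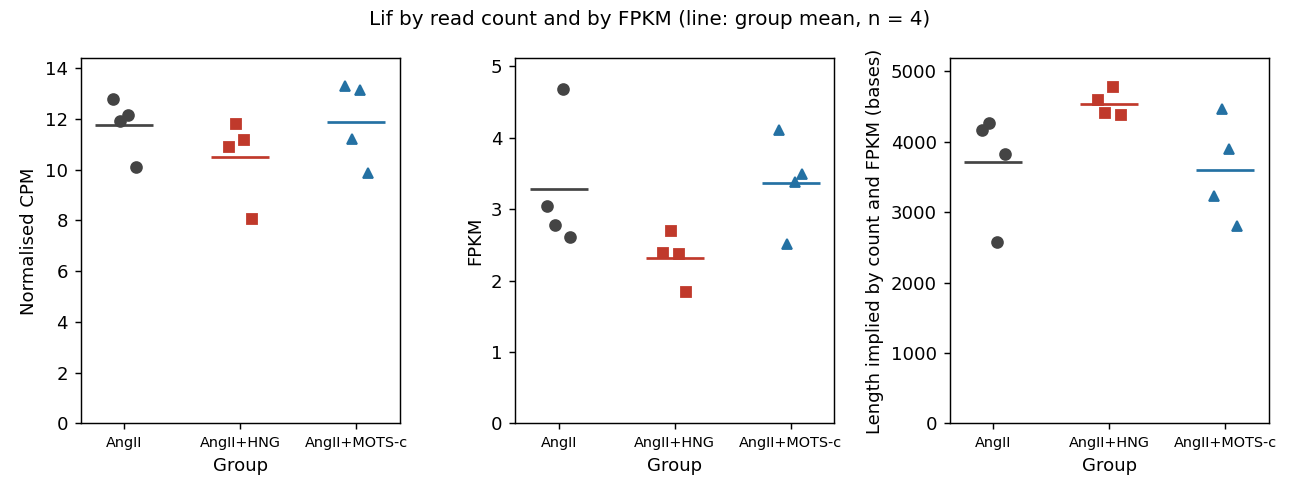
Lif in each library as normalised CPM from counts, as deposited FPKM, and as the length in bases implied by the 2 units, all on axes from 0, with a line at the group mean (n = 4). The HNG libraries lie at 8.04 to 11.8 CPM and 1.85 to 2.69 FPKM, and their implied lengths of 4387 to 4780 bases lie above those of the AngII libraries.

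Downstream, Stat3 mRNA was nearly the same in the 3 treatments. It stood at 233, 225, 233 and 236 CPM with AngII, at 232, 231, 237 and 242 CPM with HNG, and at 238, 229, 235 and 237 CPM with MOTS-c. On the log2 scale the difference was 0.027 with HNG (SE 0.035, 95% interval -0.049 to 0.10, edgeR adjusted p = 0.746) and 0.022 with MOTS-c (SE 0.029, 95% interval -0.040 to 0.083, edgeR adjusted p = 0.957). These intervals place any difference with HNG between 3.36% lower and 7.35% higher. STAT3 is controlled by phosphorylation, which mRNA levels do not report.

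Socs3, the feedback gene that STAT3 induces, stood at 17.8, 16.9, 19.5 and 21.2 CPM with AngII, at 18.5, 19.1, 23.0 and 20.8 CPM with HNG, and at 20.6, 15.7, 20.9 and 19.0 CPM with MOTS-c. The highest library was HNG replicate 3 and the lowest MOTS-c replicate 2, and the groups overlapped. The log2 fold change was 0.11 with HNG (SE 0.086, 95% interval -0.074 to 0.30, edgeR adjusted p = 0.522), which was 0.047 without HNG replicate 3. With MOTS-c it was 0.013 (SE 0.095, 95% interval -0.19 to 0.22, edgeR adjusted p = 0.994).

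The surrounding pathway was examined with 5 further lists of 77 gene symbols in all, of which 76 were found in the tables and 65 to 67 were tested. The symbol not found, Il6ra, is another name of Il6r, which was found. With HNG 3 of 65 were called (4.62%, beside 5.98% of all genes), with MOTS-c 0 of 67 (4 at an unadjusted p below 0.05 in edgeR, 0 called by DESeq2), and between the peptides 2 of 65 (3.08%, beside 4.41% of all genes). The called genes were Ccnd1, Bid and Ccl2 with HNG, and Ccnd1 and Il11ra1 between the peptides. By list the shares were 9.09% of STAT3 targets (2 of 22) and 16.7% of other humanin partners (1 of 6) with HNG, and 10% of the gp130 family (1 of 10) and 4.55% of STAT3 targets (1 of 22) between the peptides, and 0 in the other lists.

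**Figure D4:**
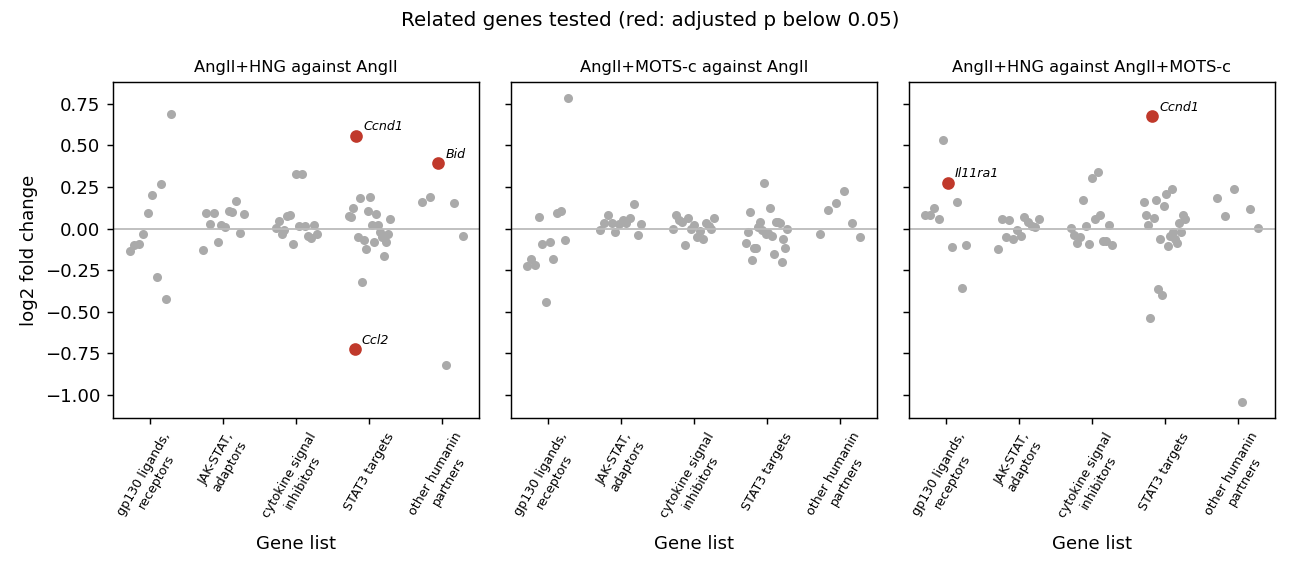
Log2 fold change of the related genes tested, grouped by list along the horizontal axis, in the 3 comparisons, with genes at an adjusted p below 0.05 in red. With HNG Ccnd1 (0.56) and Bid (0.39) lie above 0 and Ccl2 (-0.72) below, between the peptides Ccnd1 (0.68) and Il11ra1 (0.28) lie above 0, and with MOTS-c against AngII no point is red.

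The list of gp130 family ligands and receptors outside the members held 17 symbols, among them chains of related receptors that do not use gp130. Of these, 10 were tested with HNG against AngII and 0 were called. Of the ligand-specific chains, Il6r, the interleukin-6 receptor, was at 2.66 FPKM over the 12 libraries (2.17 to 3.49), and Il11ra1, the interleukin-11 receptor, at 18.1 FPKM (15.9 to 24.4). With HNG against AngII the log2 fold change of Il6r was 0.27 (SE 0.096, edgeR adjusted p = 0.134), and the HNG libraries (13.1 to 16.9 CPM) lay above the AngII libraries (10.7 to 12.8 CPM). Of the 10 genes tested there, 3 had an unadjusted p below 0.05 in edgeR and 3 did not overlap. The shares over all genes were 20.3% and 13.6%. Il27, which encodes the p28 chain of the interleukin-27 ligand of WSX-1, had 0 to 3 counts per library, and Ebi3, its partner chain, 12 to 42 counts.

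Il11ra1 was the related receptor called between the peptides. It stood at 37.1, 38.9, 47.0 and 41.6 CPM with HNG, at 33.1, 34.6, 33.6 and 34.4 CPM with MOTS-c, and at 34.0, 37.1, 36.2 and 36.4 CPM with AngII. The 4 HNG libraries were above the 4 MOTS-c libraries, and the log2 fold change was 0.28 (SE 0.068, edgeR adjusted p = 0.0386). Against AngII alone it was 0.20 with HNG (SE 0.069, edgeR adjusted p = 0.120) and -0.079 with MOTS-c (SE 0.043, edgeR adjusted p = 0.924). The call between the peptides was kept in 8 of 19 alternatives, over which the adjusted p ran from 0.00645 to 0.131. It was lost on leaving out HNG replicate 2 (edgeR adjusted p = 0.0632) or 4 (0.0855), or MOTS-c replicate 1 (0.128), 2 (0.1004), 3 (0.107) or 4 (0.0695). It was also lost with replicates 2 and 3 summed (0.0537), without the libraries numbered 4 (0.131), with the replicate block by library name (0.0632) and with limma on log2 FPKM (0.0729 and 0.0666 with 1 and 0.1 added).

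The transducers were abundant and were not called. Of 12 JAK-STAT transducers and adaptors 0 were called in each comparison, with 6, 1 and 1 at an unadjusted p below 0.05 in edgeR for HNG, MOTS-c and the difference between them, against 20.3%, 5.05% and 19.3% of all genes. Jak1, the kinase bound to gp130, was at 70.2 FPKM (66.4 to 74.2), Shc1, an adaptor, at 51.4 FPKM, and the phosphatase gene Ptpn11, whose product docks on gp130, at 44.3 FPKM. In CPM the groups did not overlap for 4 of the 12 with HNG, 2 with MOTS-c and 0 between the peptides, beside 13.6%, 3.5% and 12.7% of all genes. With MOTS-c the log2 fold change of Jak1 was 0.080 (SE 0.028, edgeR adjusted p = 0.924), without overlap. With HNG those of Ptpn11 and Grb2, an adaptor at 37.2 FPKM, were -0.079 (SE 0.035, edgeR adjusted p = 0.226) and 0.094 (SE 0.039, edgeR adjusted p = 0.194). Neither overlapped, although the lowest HNG library of Grb2 (99.65 CPM) was nearly level with the highest AngII library (99.61 CPM). Of 15 inhibitors of cytokine signalling 0 were called in each comparison, and the most abundant was Socs5 at 44.6 FPKM, far above Socs3 in the same unit.

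STAT3 is known to induce genes of survival, growth and the acute phase. Of 24 such targets listed, 22 were tested, and with HNG Ccnd1 rose and Ccl2 fell, and the median log2 fold change of the list was -0.00060. With MOTS-c 0 of 22 were called with a median of -0.021, and between the peptides 1 of 22, again Ccnd1, with a median of 0.028. The abundant targets Vegfa (69.1 FPKM), Mcl1 (65.4), Timp1 (58.5), Junb (39.6), Icam1 (38.2), Hif1a (37.5), Cebpb (32.9), Cebpd (25.03) and Bcl2l1 (22.8) were not called in any comparison, and their log2 fold changes with HNG lay from -0.082 to 0.18.

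Ccnd1, which encodes cyclin D1 and is induced by many growth signals besides STAT3, was the clearest difference in these lists. It stood at 192, 199, 172 and 170.1 CPM with HNG, at 129, 135, 125 and 111 CPM with AngII, and at 111, 123, 118 and 108 CPM with MOTS-c. All HNG libraries were above all others, and the AngII and MOTS-c libraries overlapped. The log2 fold change was 0.56 with HNG against AngII (SE 0.064, edgeR adjusted p = 4.57e-04) and 0.68 between HNG and MOTS-c (SE 0.059, edgeR adjusted p = 1.33e-04), and both calls were kept in 19 of 19 alternatives. With MOTS-c against AngII it was -0.12 (SE 0.056, edgeR adjusted p = 0.924).

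Ccl2, the monocyte chemoattractant gene, fell with HNG. It stood at 49.9, 58.9, 40.7 and 59.7 CPM with AngII, at 34.7, 33.4, 18.2 and 40.2 CPM with HNG, and at 41.0, 53.1, 36.4 and 53.0 CPM with MOTS-c. The HNG and AngII libraries did not overlap, though AngII replicate 3 and HNG replicate 4 were nearly level. The log2 fold change was -0.72 (SE 0.19, edgeR adjusted p = 0.0387), and the call was kept in 10 of 19 alternatives with adjusted p from 5.54e-04 to 0.116. It was lost without AngII replicate 1 (edgeR adjusted p = 0.0884), 2 (0.116) or 4 (0.0904) or HNG replicate 1 (0.0588) or 2 (0.0838), and without HNG replicate 3, the lowest library, it was -0.54 (edgeR adjusted p = 0.0151). The call was also lost without the libraries numbered 4 (0.0569), with DESeq2 (0.0671) and with limma on log2 FPKM (0.0904 and 0.0851 with 1 and 0.1 added). The summed macrophage markers, led by Lyz2, were at 302 to 395 CPM in these HNG libraries against 222 to 270 CPM with AngII, with 3 of 9 called, and their part in the level of Ccl2 was not tested.

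Other reported humanin receptors and binding partners were also listed. The formyl peptide receptor Fpr2 had 1 count in all 12 libraries together, Fpr3 and Fpr-rs3 had 0, which 3 counts per library would allow at up to 0.0783 to 0.107 CPM, and Fpr1 had 4 to 27 counts. Bax, a pro-apoptotic BCL2 family gene, averaged 61.6 FPKM over the 12 libraries (55.6 to 88.0). Igfbp3, which encodes a secreted binding protein of insulin-like growth factors, averaged 30.2 FPKM (25.7 to 37.9). Both were abundant and were not called, with log2 fold changes with HNG of 0.16 (SE 0.11, edgeR adjusted p = 0.465) and 0.15 (SE 0.082, edgeR adjusted p = 0.321). Bid, a pro-apoptotic gene of the BCL2 family, stood at 8.57, 7.65, 7.33 and 9.07 CPM with AngII and at 10.2, 10.3, 12.5 and 9.73 CPM with HNG, without overlap. Its level was 8.98, 7.89, 9.05 and 10.4 CPM with MOTS-c. Bid rose by 0.39 on the log2 scale with HNG (SE 0.10, edgeR adjusted p = 0.0450), close to the threshold, and was called in 8 of 19 alternatives with adjusted p from 0.0161 to 0.139. The call was lost without AngII replicate 1 (edgeR adjusted p = 0.0947), 2 (0.139) or 3 (0.138) or HNG replicate 1 (0.0596), 2 (0.0778) or 3 (0.0811), with replicates 2 and 3 summed (0.119), with the replicate block by title number (0.0622) or by library name (0.0545), and with limma on log2 FPKM (0.0635 and 0.0593 with 1 and 0.1 added).

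**Figure D5:**
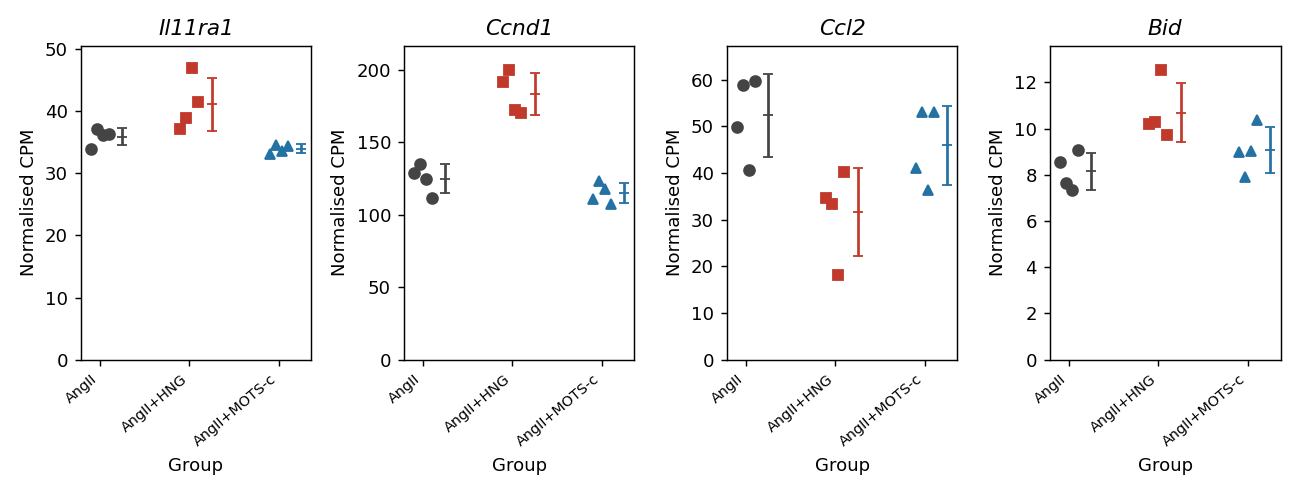
Normalised CPM of Il11ra1, Ccnd1, Ccl2 and Bid, the related genes called in at least 1 comparison, with 1 point per library and bars for the mean and SD of each group (n = 4), on axes from 0. The HNG libraries lie at 170.1 to 199 CPM for Ccnd1, above all others, and at 18.2 to 40.2 CPM for Ccl2, below all AngII libraries.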

How the data were processed

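RNA was extracted after treatment, and mRNA libraries were read in pairs on a DNBSEQ instrument. From these the authors deposited raw read counts per gene. The authors also deposited FPKM values, relative to length and library size. The submitters' processing notes name HISAT2, Picard 1.41 and SAMtools 0.1.18. The counting tool, the use of strand, the genome build and the annotation are not given in the sources used here, so reads of overlapping genes could not be told apart. Groups and replicate numbers were taken from the sample titles, and doses from the study's methods.

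The counts were tested in edgeR 4.0.16 under R 4.3.3 (filterByExpr, TMM factors of 0.990 to 1.01, glmQLFit and glmQLFTest on the 8 libraries compared, Benjamini-Hochberg adjustment, threshold 0.05). SE and 95% intervals were derived from the F statistic. CPM values are scaled by TMM. The computation was tested on simulated data. Alternatives were DESeq2 1.42.0, limma 3.58.1 on log2(FPKM + 1) and log2(FPKM + 0.1), RLE size factors, no filter, a filter of at least 10 counts per library, a joint fit of all 12 libraries, replicate blocks, summing of replicates 2 and 3, which share a number in their library names, and omission of libraries.

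The members and the related lists were chosen with earlier results of these data known. Every member was named. Of the related genes, those called in any comparison or with a mean of at least 20 FPKM were named, besides Fpr2, Il6r, Il11ra1, Jak1 and 1 gene that is not reported here. The genes most alike in pattern were to be named for each member called, and none was called. Il27, Ebi3, Fpr1, Fpr3 and Fpr-rs3 and the marker genes were outside this rule and were chosen with their values in view. Glial and mesothelial markers were also listed, and 0 of them were called. Promoter windows were read from a RefSeq table of GRCr8.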

Additional observations from a re-analysis of the deposited data

Results flagged for a closer look

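A difference between the HNG and MOTS-c libraries was tested directly for every gene, and passed the threshold for 2 genes of the related lists and for 0 of the 10 members, beside 4.41% of all genes tested. Ccnd1 differed by 0.676 on the log2 scale and Il11ra1 by 0.276, both higher with HNG and each with 4 of 4 HNG libraries above all MOTS-c libraries. The call of Ccnd1 was kept in 19 of 19 alternatives, that of Il11ra1 in 8 of 19 (adjusted p from 0.00645 to 0.131 in edgeR, DESeq2 or limma), and the latter was lost on leaving out any 1 MOTS-c library. These values compare the peptides with each other at different doses, 10 μmol/L for HNG and 5 μmol/L for MOTS-c. No library stood apart from its group by Dixon's criterion among the 42 sets of 4 libraries examined for the 10 members and the 4 called related genes.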

How the results depend on the processing

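Of 566 values of the members under the alternatives, 3 had no adjusted p (DESeq2, for Il6 with HNG and for Cntfr and Il6 between the peptides). None of the others had one below 0.05, and the lowest was 0.106 (Lif between HNG and MOTS-c, limma on log2(FPKM + 0.1)). A total of 40 had the other sign, in 11 member comparisons, the cause of which was not tested. With MOTS-c against AngII, these were Cntfr at 0.19, Il6 at 0.27, Lif at -0.0026 and Socs3 at -0.052 with the block by library name, Il27ra at 0.0086 with the block by title number and 0.048 with replicates 2 and 3 summed, and Cntfr at 0.050 and Il27ra at 0.010 without the libraries numbered 4. Between the peptides they were Lifr at 0.018 with the sum, and Il6 at 0.060 and Stat3 at -0.0041 without the libraries numbered 4. Leaving out single libraries gave, with MOTS-c, Il6st from -0.0064 to 0.026, Cntfr from -0.46 to 0.10, Il27ra from -0.080 to 0.16, Il6 from -0.23 to 0.13, Lif from -0.051 to 0.095 and Socs3 from -0.036 to 0.098, with HNG against AngII, Il27ra from -0.21 to 0.050 and Osmr from -0.0031 to 0.068, and between the peptides, Lifr from -0.13 to 0.031 and Stat3 from -0.017 to 0.012. Cntfr and Il6 gave no value with at least 10 counts in every library where a library had fewer.

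Counts of all genes called moved more. For HNG against AngII (869) they were 577 with the sum, 541 without the libraries numbered 4, and 431 to 932 without single libraries, lowest without AngII replicates 1 (431), 2 (485) and 3 (512). For MOTS-c (1) they were 0 in one fit of 12 libraries, 0 with the sum, 0 without the libraries numbered 4, 4 with DESeq2 and 0 to 3 without single libraries, 3 of them without MOTS-c replicate 1. Between the peptides (637) they were 975 in one fit, 377 without the libraries numbered 4, 1034 with DESeq2, and 322 to 625 without single libraries, lowest without MOTS-c replicates 1 (324), 2 (322) and 3 (389) and HNG replicate 2 (416). Related genes called with HNG (3) were 1 with limma on either FPKM scale and 1 to 3 without single libraries, 1 of them without AngII replicate 1 or 2 or HNG replicate 2. Between the peptides (2) they were 4 in one fit, 4 with DESeq2, 1 with the sum, 1 without the libraries numbered 4, 1 with limma, and 1 to 3 without single libraries, 1 of them without HNG replicate 2 or any 1 MOTS-c replicate. The cause of these shifts was not tested, beyond the fewer samples of several settings.

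Libraries with the same title number were not shown to be pairs, since their deviations correlated at a mean of 0.0186, 0.0752 and 0.112 in the 3 comparisons, with 1, 1 and 3 of 4 pairs over 0.1. The libraries that correlated best with their own number were 1, 3 and 3 of 4. Those numbered 4 were among them in each comparison and had the highest correlations, at 0.119, 0.134 and 0.245. The replicate block by title number gave 1111, 2 and 1054 genes, with 5, 0 and 7 related genes called, and the block by library name 1113, 1 and 485 genes, with 4, 0 and 1. Under the title block Ccl2 was also called between the peptides (edgeR adjusted p = 0.00368) and Bid was not called with HNG (0.0622). Under the block by library name neither Bid with HNG (0.0545) nor Il11ra1 between the peptides (0.0632) was called. Members called stayed at 0 under both blocks. Cntfr, Il6 and Il11 had 9 to 48 counts per library, and the spread between libraries exceeded the counting error in all groups for Cntfr (21.8% to 46.4% of the mean against 19.3% to 24.6%) and Il6 (29.8% to 39.6% against 24.4% to 28.01%), and for Il11 with HNG (29.1% against 17.0%), so both depth and spread limit these tests.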
